A study of Caenorhabditis elegans with 18 samples.

Results

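Wild-type hermaphrodites of Caenorhabditis elegans that had grown up on ascr#10 were harvested at 58 h in 2 separate collections, and the transcripts that separate the collections are described here. The samples are the 3 ascr#10 libraries of the second collection and the 3 of the first, 6 of the 18 libraries in the series, taken by their labels and with no regard to their values. The other 58 h worms, 3 water libraries of each collection, served to ask whether exposed worms of the collections lay closer together than unexposed ones. The 58 h worms were collected anew because the first libraries had been sequenced too shallowly, so the second collection holds new worms as well as new libraries. Differences of worms, libraries and depth between collections cannot be told apart.

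All groups were strain N2, grown at 20 degrees C from larvae synchronised by starvation and sampled as whole animals 58 h later, with 30 to 50 worms to a plate. In the ascr#10 groups, plates had received 2.2 fg (60 mm plates) or 1.1 fg (35 mm plates) of ascr#10 from an ethanol stock thinned with water. In the water groups, plates had received water alone. Delayed worms and males were picked off before harvest. Samples sharing a condition are described as independent, and p-values here rest on the spread among the 3 of a group. Libraries of 50 h, exposed and unexposed, were made only in the first collection. They enter the shared estimate of spread and, for water worms, a comparison with age.

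Ascarosides are small glycolipid signals that worms release and sense, and ascr#10 is known as a pheromone that males make in excess over hermaphrodites. At this stage hermaphrodites begin to ovulate, the intestine makes yolk for the oocytes, and the first embryos form inside the mother. A whole-worm library therefore mixes germline, embryos and somatic tissues, and fewer cells of a type cannot be told apart from less RNA per cell.

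Total counts were 54.3 to 69.2 M per ascr#10 library in the second collection and 26.7 to 32.9 M in the first. They were 61.6 to 72.3 M per water library in the second collection and 25.9 to 28.4 M in the first. Of 46253 genes, 16006 passed the filter on low counts. Ribosomal RNA genes took 0.426% to 0.543% of the counts in ascr#10 worms of the second collection, against 0.397% to 0.827% in the first. Markers of the expected tissues were present. Oocyte markers (oma-1, oma-2, rme-2, egg-1) summed to 3019 to 3078 CPM by total counts (plain CPM) in the second collection and 2624 to 2683 in the first, and markers of intestine, muscle and neurons passed the filter. Of the epidermal markers col-19 was high, while rol-6 and dpy-7 never exceeded 13 counts in these 6 libraries. The 7 male markers summed to 0.827 to 1.03 plain CPM in the second collection and 0.941 to 1.27 in the first. Of these, cwp-1 was at 0 in all 3 libraries of the second and at 0 or 1 count in the first. cwp-4 and try-5 passed the filter. cwp-4 had 21 to 45 counts in the second collection and 10 to 16 in the first, and try-5 had 10 to 20 and 11 to 15.

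Exposed worms of the collections differed in more than a few genes. With edgeR's quasi-likelihood test and Benjamini-Hochberg adjustment at 0.05, 8887 of 16006 genes (55.5%) differed between the second and first collections in ascr#10 worms. Of these, 4829 (30.2% of genes tested) were higher and 4058 (25.4%) lower in the second collection. Most of these differences were small: 1140 genes (7.12%) were higher and 1312 (8.2%) lower by over 1.5-fold, and the median absolute log2 difference over all genes was 0.283. The share of higher calls was 54.3%, and 17.2% on log2(TPM + 1), a scale on which the median of all genes lay at -0.15 against 0.02 on counts, a shift of -0.17. Values on that scale are to be read against its median.

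Gene length moved with the collection difference. Genes with the shortest exons (3999 genes, up to 860 bases) had a median log2 difference of 0.27 in ascr#10 worms and 0.26 in water worms. Those with the longest (3997 genes, from 1989 bases) had medians of -0.17 and -0.18. Among the shortest, 43.7% of genes were higher and 9.73% lower in ascr#10 worms, and among the longest 13.5% were higher and 52.2% lower. A fit with this trend removed in each library was therefore added after it was seen, and its values stand beside many of the gene lists but not all. With the trend removed, 4448 genes were higher and 3642 lower in ascr#10 worms.

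**Figure D1:**
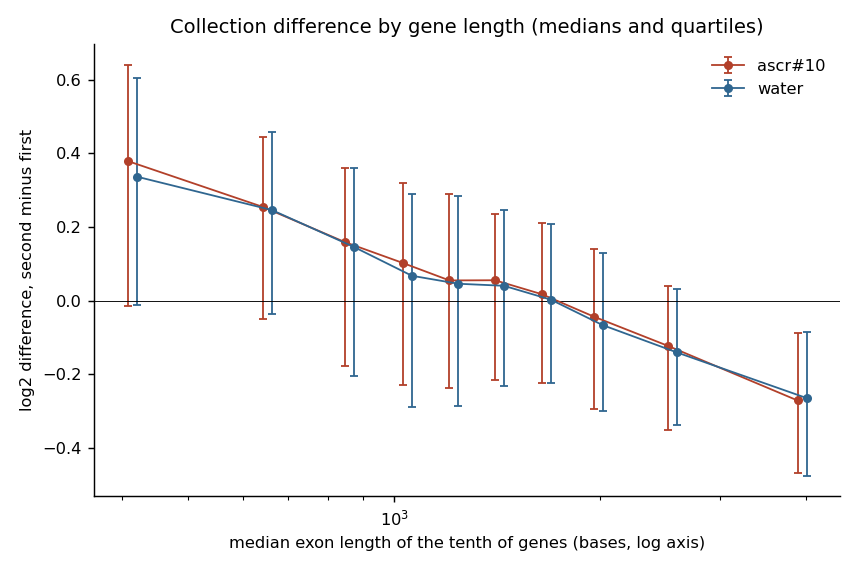
Median log2 difference, second minus first collection, in each of 10 groups of genes by exon length (x axis, bases, log scale), with quartiles as bars, for ascr#10 and water worms. Both lines fall alike with length, with a median of 0.38 for ascr#10 worms in the shortest group and -0.27 in the longest.

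Lack of overlap between the collections was common, found in 9378 of 16006 genes tested. Of 8758 genes of at least 5 CPM, 6419 were called and had no overlap. Among called genes of at least 5 CPM whose collections did not overlap, heat shock genes made up 6 of the 12 with the largest rise in the second collection. hsp-70 (WBGene00002026, chromosome I from 9320325 to 9322519 in WBcel235, overlapped by uggt-2), a stress-inducible chaperone, had 28.7, 28.3 and 27.5 CPM in ascr#10 worms of the second collection, against 3.65, 3.91 and 2.67 CPM in the first. These levels are CPM at the scaled library size, as are those that follow. The groups were far apart, with means of 28.2 ± 0.598 and 3.41 ± 0.655 CPM (SD, n = 3 each), an 8.23-fold difference and a log2 difference of 3.04 ± 0.09 (SE, adjusted p = 2.8e-27). hsp-16.41, a small chaperone of the alpha-crystallin family, had 27.3, 21.3 and 21.9 CPM in the second collection and 2.96, 3.34 and 4.17 CPM in the first, with no overlap and a log2 difference of 2.76 ± 0.10 (SE, adjusted p = 3.5e-21).

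The HSP70 family genes F44E5.4 and F44E5.5 differed by 3.08 and 3.00 on the log2 scale, and the small heat shock genes hsp-16.2 and hsp-16.11 by 2.62 and 2.25. F44E5.4 had 107, 95.5 and 93.4 CPM in the second collection and 11.9, 11.4 and 11.6 CPM in the first. F44E5.4 with F44E5.5, and the hsp-16 genes in pairs, are near-identical copies among which reads may have been split, so their single values are uncertain. Of 26 heat shock and chaperone genes tested, 13 were higher and 10 lower (median 0.03, and -0.16 on log2(TPM + 1)), and hsp-4, the BiP chaperone of the endoplasmic reticulum, was lower at 440, 414 and 416 CPM in the second collection against 605, 628 and 598 CPM in the first (log2 difference -0.53). The abundant chaperone hsp-90 differed by -0.10, and by 0.01 with the length trend removed. All 8 chaperonin subunits, which fold actin and tubulin, were lower, with cct-3 at -0.36 and a median of -0.19.

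Of genes for fatty acid synthesis, elo-5 was the 1 among those 12. elo-5 (WBGene00001243, chromosome IV from 5374616 to 5377117, overlapped by F41H10.3), an elongase that makes branched-chain fatty acids, had 151, 143 and 138 CPM in the second collection, against 21, 21.82 and 20.49 CPM in the first. The groups stood 6.83-fold apart with no overlap, a log2 difference of 2.77 ± 0.04 (SE, adjusted p = 4.2e-49). acs-1, an acyl-CoA synthetase of the same branched-chain pathway, had 204, 199 and 202 CPM in the second collection against 85.0, 82.8 and 82.1 CPM in the first (1.27 on the log2 scale). Of 24 desaturase, elongase and related genes, 15 were higher and 5 lower, with a median of 0.32 beside 0.02 over all genes (0.26 with the length trend removed). The stearoyl-CoA desaturase fat-7 differed by 0.66, whereas sbp-1, which encodes the sterol regulatory element binding protein, was lower by a log2 difference of -0.64.

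Genes of lipid breakdown leaned the other way. Of 57 lipid breakdown and binding genes, 12 were higher and 29 lower, with a median of -0.18 (-0.15 with the length trend removed). The acyl-CoA synthetase acs-3 fell most among called members of at least 5 CPM, at 3.07, 3.62 and 3.04 CPM in the second collection and 12.2, 11.9 and 12.3 CPM in the first (log2 difference -1.91). acs-1, given above beside elo-5, belongs to this list too and rose most under the same limits. Of 11 glyoxylate and gluconeogenesis genes, 8 were lower and 1, pck-1, was higher, and the dehydrogenase gene sodh-1 had 24.9, 26.9 and 27.5 CPM in the second collection against 80.9, 79.7 and 81.4 CPM in the first (log2 difference -1.61). pck-1, a phosphoenolpyruvate carboxykinase, differed by 0.25, and by 0.07 with no call on log2(TPM + 1) (limma adjusted p = 0.11).

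The other genes among those 12 rises were ncx-7, a sodium-calcium exchanger (2.49), amt-4, an ammonium transporter (2.41), zip-5, a bZIP transcription factor (2.34), and K09D9.1 and K08D8.4 (2.66 and 2.25). None of the 12 had overlapping groups, as the rule that chose them required. zip-5 lost its call on length-scaled counts and on log2(TPM + 1) (adjusted p = 0.11 in each). The gap in ncx-7 was 14.1, 14.1 and 14.7 CPM in the second collection against 2.90, 2.68 and 1.95 CPM in the first.

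Among called genes of at least 5 CPM whose collections did not overlap, aman-1 (WBGene00018877, chromosome X from 4733095 to 4738592), an alpha-mannosidase gene, had the largest fall. It had 2.377, 1.913 and 2.577 CPM in ascr#10 worms of the second collection, against 17.3, 17.9 and 17.9 CPM in the first, a log2 difference of -2.94 ± 0.08 (SE, adjusted p = 1.5e-35). catp-3 (WBGene00015660, chromosome V from 8076012 to 8079916), a cation-transporting ATPase gene, had 26.9, 27.3 and 28.1 CPM in the second collection and 189, 186 and 176 CPM in the first, a log2 difference of -2.74 ± 0.03 (SE, adjusted p = 2.1e-53). Both genes separated the collections without overlap, and aman-1 fell to the same extent in water worms (-2.95).

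The rest of the 12 largest falls under these limits had log2 differences between -2.56 and -1.77. They were dpf-6, a dipeptidyl peptidase gene, the nuclear receptor nhr-43, the secreted-protein gene scl-2, the mitochondrial carrier slc-25A29, acs-3, ZK6.8, C50F7.5, T27F6.8, pes-2.1 and sepa-1. Of these, slc-25A29 is overlapped by pmp-3 and T27F6.8 by K11D2.1. C50F7.5 was the most abundant of these, with 26.1, 29.6 and 28.8 CPM in the second collection against 135.2, 134.1 and 124.6 CPM in the first. Of 194 nuclear receptors, 30 were higher and 60 lower (median -0.13), beside 30.2% higher and 25.4% lower over all genes tested. Their share of higher calls lay under that of all genes, while their share of lower calls was nearer to it. The largest rise among nuclear receptors of 5 CPM or more was nhr-55, at 1.31.

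**Figure D2:**
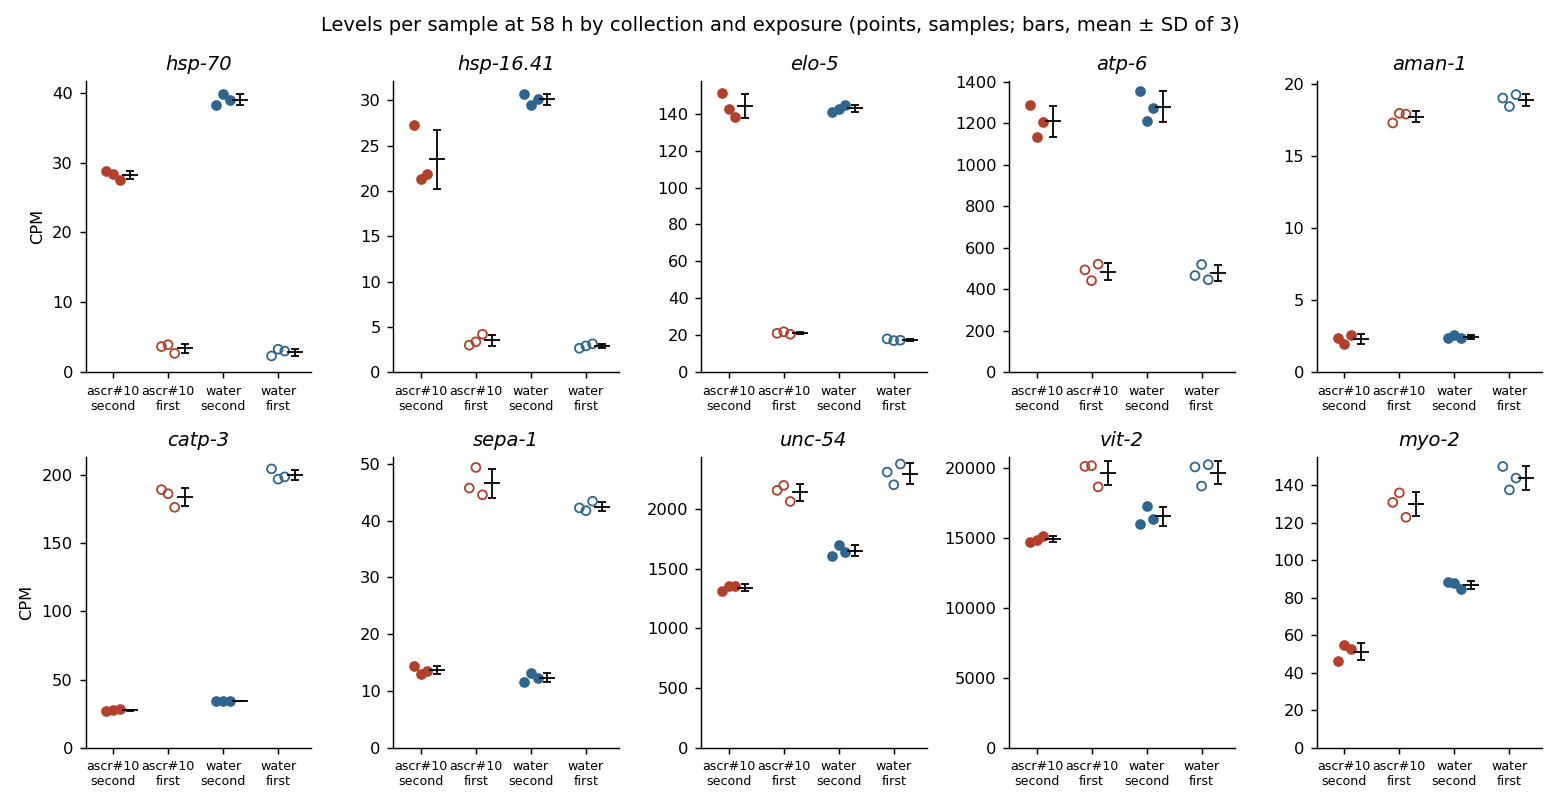
CPM per library for 10 genes in the 4 groups of 58 h, with the second collection left of the first (filled and open points) and the mean ± SD of 3 libraries as bars. hsp-70, hsp-16.41, elo-5 and atp-6 stand higher in the second collection and the other 6 genes lower, in ascr#10 as in water worms, and myo-2 falls to lower levels in ascr#10 worms of the second collection than in water worms of it.

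Transcripts of embryos were lower in the second collection. sepa-1 (WBGene00010808, chromosome I from 13298204 to 13300716), an adaptor for the removal of germ granules in embryonic cells, had 14.4, 13.1 and 13.5 CPM in ascr#10 worms of the second collection, against 45.7, 49.4 and 44.5 CPM in the first (log2 difference -1.77 ± 0.06, SE, adjusted p = 8.6e-33). pes-10, transcribed in early embryonic cells, had 4.717, 3.997 and 3.461 CPM in the second collection and 13.88, 12.96 and 13.01 CPM in the first (log2 difference -1.72). In neither gene did the collections overlap. Of 51 zygotic embryonic genes tested, 33 were lower and 3 higher, with a median of -0.67 (-0.76 with the length trend removed, and -0.58 on log2(TPM + 1)).

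The 3 higher ones included sdz-27 (0.41), and lin-26 (0.16) and sdz-6 (1.83), which are named for being the other members counted. The list summed to 326 to 332 CPM in the second collection and 479 to 480 CPM in the first. The 7 embryonic markers summed to 14.5 to 15.4 plain CPM in the second collection and 30.2 to 33.8 in the first, and in water worms to 13.02 to 13.54 and 32.05 to 32.46. his-24, a linker histone gene, was lower as well, with 79.9, 84.0 and 86.2 CPM in the second collection and 193, 202 and 204 CPM in the first (log2 difference -1.26).

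Genes that follow age between the harvest times were compared in turn, with sets chosen only in water worms of the first collection. Of 588 genes that were at least 4-fold higher at 58 h than at 50 h in those worms, 330 (56.1%) were lower and 20 (3.40%) higher in ascr#10 worms of the second collection, beside 25.4% lower and 30.2% higher over all genes. Their median log2 difference was -0.57, with a middle range of -0.89 to -0.11. Of 2272 genes that were at least 4-fold lower at 58 h, 293 (12.9%) were higher and 187 (8.23%) lower, with a median of 0.07. Both shares of this second set lay under those of all genes. The sets share no library with the comparison in ascr#10 worms, but they were chosen with 58 h worms of the same first collection. A trait of that collection could enter both, so the sets are not independent of the comparison. Embryonic genes are part of the first set.

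Mitochondrial transcripts were higher. All 12 protein genes of the mitochondrial genome were higher in the second collection, with a median of 0.78 (0.65, with 10 called higher, once the length trend was removed). atp-6 (WBGene00010960, mitochondrial genome from 2634 to 3235, overlapped by nduo-1), a subunit of ATP synthase, had 1288, 1136 and 1205 CPM in the second collection, against 493, 441 and 521 CPM in the first, which did not overlap (log2 difference 1.32 ± 0.08, SE, adjusted p = 5e-09). The 12 genes summed to 11899 to 13278 CPM in the second collection and 7057 to 8145 CPM in the first.

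The nuclear genes of the respiratory chain were higher in 34 and lower in 6 of 47, with a median of 0.21. That median was 0.06 with the length trend removed and -0.07 on log2(TPM + 1). cox-17, a copper chaperone for cytochrome oxidase, was the largest rise at 0.79, and sdha-1, a subunit of succinate dehydrogenase, the largest fall at -0.34. Of 84 cytosolic ribosomal protein genes, 82 were higher and the other 2 not called, with a median of 0.39. These genes are short, and with the length trend removed 64 were higher and 2 lower, with a median of 0.13. rpl-41.1 differed by 1.32, but near-identical copies of rpl-41 make its value uncertain. Of 71 mitochondrial ribosomal protein genes, 57 were higher and 5 lower (median 0.29, and 0.09 with the length trend removed).

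In the germline, oocyte transcripts were slightly higher. oma-2, a zinc-finger protein needed for oocyte maturation, had 722, 718 and 721 CPM in the second collection against 555, 564 and 547 CPM in the first (log2 difference 0.38 ± 0.02, SE, adjusted p = 1.4e-22). Of 24 oocyte and maternal regulators, 12 were higher and 5 lower, with a median of 0.10 (0.18 with the length trend removed, and -0.17 on log2(TPM + 1)). Its partner oma-1 and the yolk receptor rme-2 differed by 0.18 and 0.12 on counts, but by -0.10 and -0.15 on log2(TPM + 1). meg-2, of the germ granules, was lower (-0.47).

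Of 33 meiotic chromosome genes, 25 were higher and 2 lower, with a median of 0.20 (0.23 with the length trend removed, and -0.07 on log2(TPM + 1)). zhp-4 rose most (0.50). syp-1, of the synaptonemal complex, differed by -0.09, but by 0.07 with no call once the length trend was removed. Of 22 egg surface and eggshell genes, 17 were higher and 2 lower (median 0.16, and -0.12 on log2(TPM + 1)), led by cpg-9, a chondroitin proteoglycan gene, at 60.1, 50.1 and 52.2 CPM in the second collection and 22, 21.52 and 21.62 CPM in the first.

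Of 30 DNA replication and mitosis genes, 8 were higher and 16 lower (median -0.07), with the replication licensing gene cdt-1 lower (-0.51), knl-3 of the kinetochore higher (0.43), and pcn-1, the sliding clamp, at -0.08. Of 16 germline stem cell and Notch genes, 5 were higher and 8 lower (median -0.08, and 0.09 with the length trend removed). The Notch receptor gene glp-1 differed by -0.11 on counts and by 0.24 with the length trend removed, so its direction was set by that choice. nos-2, a nanos family gene, was higher (0.50), and gld-2, a poly(A) polymerase gene, lower (-0.47). Among 31 germ granule and Argonaute genes, 15 were higher and 13 lower, with wago-2 at 0.38 and the helicase glh-2 at -0.32. With the length trend removed, 19 of the 31 were higher and 3 lower (median 0.16).

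Sperm genes were at low levels at this age. Of 33 major sperm protein genes, 22 were higher and the rest not called (median 0.47), and with the length trend removed 9 were higher and 2 lower (median 0.14). These genes are near-identical copies, so single members are uncertain. msp-19 had 7.67, 9.83 and 7.73 CPM in the second collection and 5.55, 4.95 and 4.02 CPM in the first, a difference of 0.78 that lost its call with the length trend removed (adjusted p = 0.13). Of 51 other sperm genes, 20 were higher and 1 lower (median 0.19, and -0.02 on log2(TPM + 1)), with ssp-9 at 0.93. The sperm phosphatase gene gsp-3 overlapped between the collections, at 3.97, 3.11 and 3.61 CPM in the second and 3.18, 3.61 and 3.08 CPM in the first.

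Yolk genes were lower on counts. vit-2, which encodes vitellogenin, had 14698, 14850 and 15118 CPM in ascr#10 worms of the second collection, against 20098, 20147 and 18634 CPM in the first (log2 difference -0.40 ± 0.03, SE, adjusted p = 2.3e-08). All 6 vitellogenins were lower, with a median of -0.31, and vit-5 fell most (-0.47). These genes are long (median exon length 4935 bases), and with the length trend removed 3 were higher and 2 lower, with a median of 0.03 and vit-6 at 0.00 in place of -0.34. Reads may be split among vit copies.

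Histone genes, most of them very short, showed the opposite dependence. Of 60 tested, 18 were higher and 8 lower, with a median of 0.17 (-0.02 on log2(TPM + 1)). The share of higher calls was close to the 30.2% of all genes tested and under the 43.7% of the shortest genes. That of lower calls lay under the 25.4% of all genes. With the length trend removed 4 were higher and 16 lower, with a median of -0.13. his-24 stayed lower in both fits. his-48, the largest rise at 5 CPM or more (0.98), is a near-identical copy and lost its call in 4 of the alternatives.

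Muscle genes were lower in the second collection of exposed worms. unc-54, the main myosin heavy chain of body wall muscle, had 1311, 1360 and 1357 CPM in the second collection, against 2158, 2200 and 2065 CPM in the first (log2 difference -0.67 ± 0.02, SE, adjusted p = 2.1e-28). myo-2, a myosin of pharyngeal muscle, had 46.3, 54.8 and 52.5 CPM in the second collection and 130.8, 135.8 and 122.8 CPM in the first (log2 difference -1.34), and myo-3 differed by -0.59. None of these overlapped between collections, nor did 9378 of the 16006 genes tested. Of 36 muscle genes, 24 were lower and 5 higher, with a median of -0.22. With the length trend removed 26 were lower and 3 higher, with a median of -0.15. unc-98, the largest rise at 5 CPM or more (0.21), lost its call in 5 alternatives and changed sign to -0.06 on log2(TPM + 1).

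Of 21 pan-neuronal genes, 11 were lower and the rest not called (median -0.15), and with the length trend removed 7 were lower and 3 higher (median -0.07). unc-104, a kinesin that carries synaptic vesicles, fell most among called members of at least 5 CPM (-0.70). Of 30 FMRFamide-like peptide genes, 6 were higher and 10 lower (median -0.11, and -0.35 with 17 lower and the rest not called once the length trend was removed). flp-1 had 8.51, 9.77 and 9.83 CPM in the second collection and 13.9, 13.2 and 14.8 CPM in the first (log2 difference -0.57). Of 72 neuropeptide-like genes, 13 were higher and 13 lower, with nlp-27 (0.73) and nlp-14 (-0.84) at the ends among called members of at least 5 CPM. With the length trend removed, 5 of the 72 were higher and 28 lower (median -0.26). cat-4, an enzyme of the cofactor for serotonin and dopamine synthesis, was the only serotonin gene of 10 that was higher (0.69).

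Among intestinal genes, those for digestion were mostly higher. elt-2, the GATA factor that governs the intestine, had 10.3, 10.3 and 9.38 CPM in the second collection, against 4.68, 5.06 and 4.92 CPM in the first (log2 difference 1.03 ± 0.08, SE, adjusted p = 1.1e-15). Of 14 intestinal identity genes, 8 were higher and 4 lower (median 0.21, and -0.08 on log2(TPM + 1)), with the transporter pgp-2 at -1.22. Of 47 digestive and antimicrobial enzyme genes, 31 were higher and 5 lower, with a median of 0.33 (0.21 with the length trend removed) and the saposin-like gene spp-18 at 1.25.

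Of 102 glucuronosyl and glutathione transferase genes, 39 were higher and 18 lower (median 0.21, and -0.05 on log2(TPM + 1)). Among called members of at least 5 CPM, ugt-44 was the largest rise, at 46.3, 43.8 and 45.7 CPM in the second collection and 12.14, 11.62 and 10.53 CPM in the first (1.98 on the log2 scale). Of 58 cytochrome P450 genes, 18 were higher and 14 lower, shares close to the 30.2% and 25.4% of all genes tested, with cyp-35C1 at 1.69 and cyp-34A4 at -1.02. C-type lectins were higher in 37 and lower in 18 of 117 (median 0.12, and -0.05 on log2(TPM + 1)), a share of higher calls close to the 30.2% of all genes. clec-52 had the largest rise among called members of at least 5 CPM (1.57). Epidermal antimicrobial peptides were higher in 10 and lower in 11 of 35, and with the length trend removed in 8 and 14 (median -0.31).

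Genes of ascaroside synthesis make the worms' own pheromones. Of 10 tested, 7 were higher and 3 lower, with a median of 0.16 (-0.11 on log2(TPM + 1)). The acyl-CoA oxidase genes acox-1.5 and acox-1.3 stood at the ends, at 1.12 and -0.81. daf-22, the thiolase of the last step in side-chain shortening, had 38.3, 36.5 and 37.6 CPM in the second collection and 32.6, 34.06 and 33.05 CPM in the first (log2 difference 0.17, and -0.10 on log2(TPM + 1)). acdh-1, an acyl-CoA dehydrogenase of the propionate shunt, differed by 0.05 on counts, a call that was lost in 10 alternatives and turned to -0.23 on log2(TPM + 1).

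Of 122 cuticle collagens, 34 were higher and 31 lower, shares close to the 30.2% and 25.4% of all genes tested, with a median of 0.02 (-0.13 on log2(TPM + 1)). col-144 had 16.1, 16.7 and 17.3 CPM in the second collection against 7.33, 8.63 and 5.26 CPM in the first (log2 difference 1.24), and col-133 was lower (-1.37). Of 28 moulting genes, 2 were higher and 13 lower (median -0.14, and -0.05 with the length trend removed), with the fibrillin-related gene fbn-1 at 3.46, 4.21 and 4.15 CPM in the second collection and 12.4, 11.5 and 10.2 CPM in the first. Of 23 body-shape and blister genes, 1 was higher and 5 were lower.

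Several other lists had calls in both directions on counts, beside 30.2% higher and 25.4% lower over all genes tested. Of 11 osmotic stress genes, 3 were higher and 5 lower, with the inositol transporter hmit-1.1 at -1.73 and the aquaporin aqp-8 at 0.55. Of 31 proteasome subunits, 9 were higher and 10 lower (pas-3 at 0.18, and -0.07 on log2(TPM + 1), and rpn-2 at -0.35), and with the length trend removed 23 were lower and the rest not called. Of 26 metal response genes, 8 were higher and 9 lower, with ferritin ftn-2 at 0.43 and the zinc transporter gene zipt-2.1 at -0.66. The 21 propionate and vitamin B12 genes leaned lower, with 6 higher and 12 lower (median -0.09, and -0.04 with the length trend removed). Among them were nhr-114 at 0.88 and the cystathionine synthase gene cbs-1 at -0.48. Of 62 hedgehog-related genes, 12 were higher and 10 lower. Of 11 somatic gonad genes, 4 were higher and 5 lower, with inx-9 at 0.23 (-0.05 on log2(TPM + 1)) and fos-1 at -0.52.

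**Figure D3:**
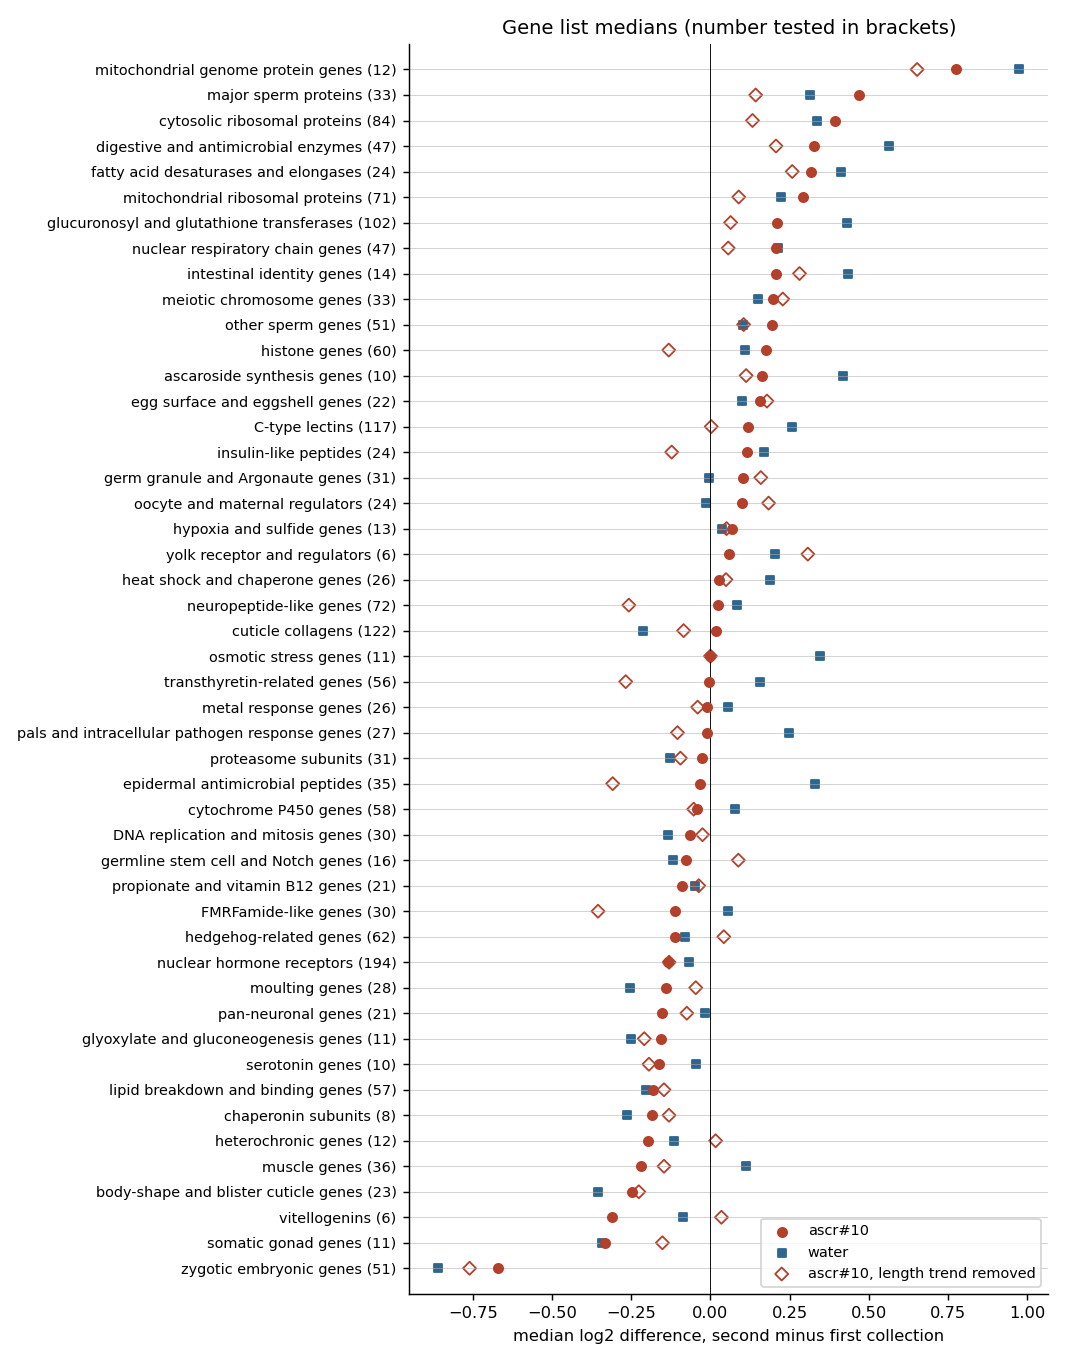
Median log2 difference, second minus first collection, of each gene list with at least 5 members tested, in ascr#10 worms (filled circles), in water worms (squares) and in ascr#10 worms with the length trend removed (open diamonds). Mitochondrial genome genes lie highest (0.78 in ascr#10 and 0.98 in water worms) and zygotic embryonic genes lowest (-0.67 and -0.86), whereas muscle genes lie at -0.22 in ascr#10 and 0.11 in water worms.

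Whether exposed worms of the collections were closer than water worms depended on how genes were weighed and on the scale. In ascr#10 worms 8887 genes differed (55.5%) and in water worms 9297 (58.1%), of which 4934 (30.8%) were higher and 4363 (27.3%) lower. Past 1.5-fold, 1140 genes were higher and 1312 lower in ascr#10 worms, against 1404 (8.77%) and 1561 (9.75%) in water worms. The comparisons share no library, and 7144 genes were called in the same direction in both, 80.4% of the calls in ascr#10 worms and 76.8% of those in water worms. Across 8824 genes of at least 5 CPM the differences had a Pearson correlation of 0.92 and a Spearman correlation of 0.90, and across all 16006 genes of 0.59 and 0.72. Genes are not independent replicates, and the differences share gene length.

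For the typical gene the distance between collections depended on the scale. On counts, over the 9 pairs of libraries across collections, the median absolute log2 difference was 0.285 to 0.315 in ascr#10 worms (median 0.297) and 0.287 to 0.311 in water worms (median 0.300). These ranges overlap, and pairs within a group lay at 0.0661 to 0.109. On log2(TPM + 1) the median over the pairs was 0.229 ± 0.00698 in ascr#10 and 0.248 ± 0.00304 in water worms (SD over 9 pairs), so exposed worms were closer on that scale.

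By a measure that weighs large differences more, exposed worms were closer on counts too. The root mean square was 0.600 to 0.633 over the pairs of ascr#10 worms and 0.676 to 0.695 over those of water worms, ranges that do not overlap. With counts thinned to 25.6 M per library, an alternative added after these values were seen, its median was 0.602 in ascr#10 and 0.668 in water worms. The gap was widest for genes at the lowest levels: among 4059 genes under 1 CPM the root mean square of the group difference was 1.00 in ascr#10 and 1.17 in water worms. It was 0.475 and 0.540 for genes of 5 to 50 CPM, and 0.321 and 0.340 for 4207 genes of 50 CPM or more. The pairs share libraries, so no test was made of these distances.

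**Figure D4:**
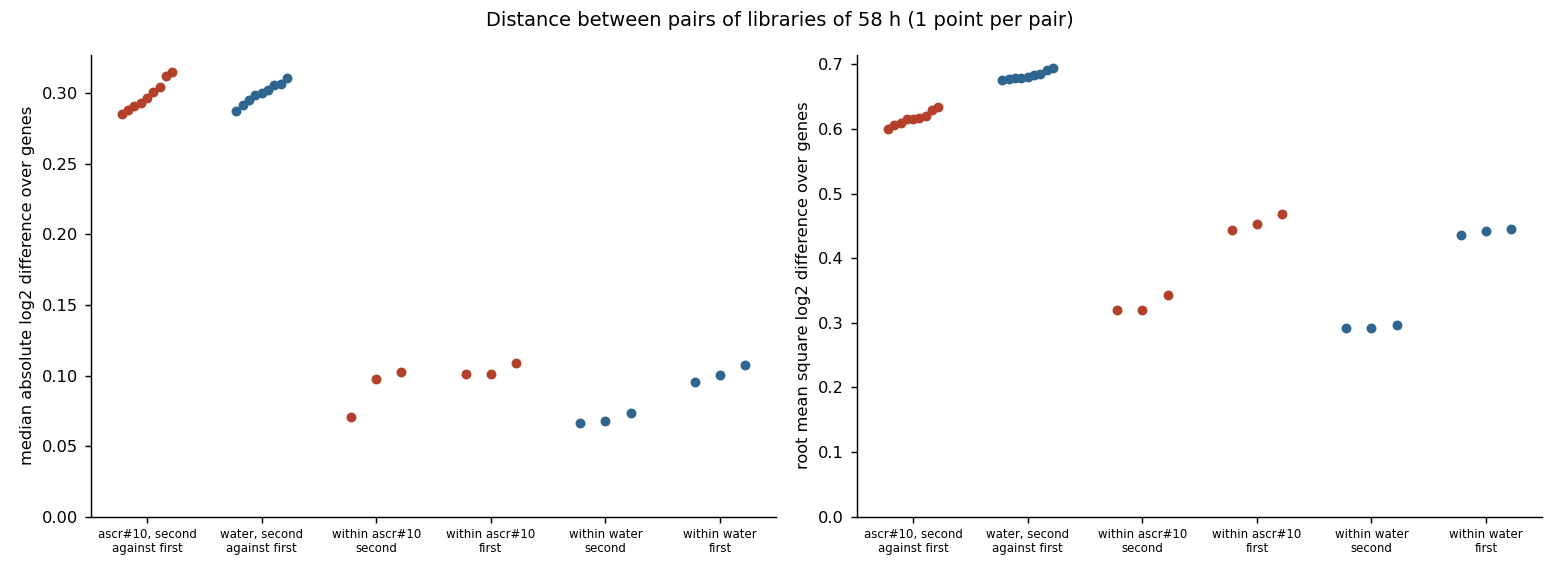
Distance between pairs of 58 h libraries, as the median absolute (left) and root mean square (right) log2 difference over genes, with 1 point per pair in order of size. Pairs across collections overlap between ascr#10 and water worms on the left (0.285 to 0.315 and 0.287 to 0.311) and separate on the right (0.600 to 0.633 and 0.676 to 0.695).

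The test of the difference itself, gene by gene, called 1783 genes (11.1%), with 694 (4.34%) positive and 1089 (6.8%) negative, where positive means that the second-minus-first difference was greater in ascr#10 worms. Of the 1783, 1113 (62.4%) had the smaller absolute difference in ascr#10 worms and 670 the larger, beside 52.5% with the smaller over all genes tested. Among called genes, 135 (0.843%) were positive and 202 (1.26%) negative by over 1.5-fold, and of these 337, 246 had the smaller difference in ascr#10 worms. The share stayed between 57.2% and 64.7% under every alternative run.

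The choice of set matters for such a count. Of 625 genes at least 2-fold higher in the second collection of water worms, 531 had a smaller difference in ascr#10 worms, with a median of 1.014 in ascr#10 and 1.38 in water worms. Of 480 genes at least 2-fold higher in ascr#10 worms, 220 had the smaller difference there. For genes at least 2-fold lower, the counts were 612 of 746 when chosen in water worms and 189 of 488 when chosen in ascr#10 worms.

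Among called genes with at least 5 CPM, the strongest negative values belonged to genes that were higher in the second collection of water worms. kreg-1 (WBGene00018725, chromosome X from 8709764 to 8710015) had 9.31, 9.77 and 10.1 CPM in ascr#10 worms of the second collection, against 2.43, 2.91 and 2.52 CPM in the first. In water worms it had 12.1, 12.5 and 11.8 CPM in the second collection, against 0.745, 0.836 and 1.17 CPM in the first. Its log2 difference was 1.90 in ascr#10 and 3.73 in water worms, and these differed by -1.83 ± 0.20 (SE, adjusted p = 6.5e-10). The water worms thus had higher levels in the second and lower levels in the first collection, with the ascr#10 worms in between.

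gcsh-1, which encodes the H protein of glycine cleavage, had log2 differences of 1.75 in ascr#10 and 3.28 in water worms, and the bZIP factor zip-10, which skp-1 overlaps, of 2.14 and 3.49. oac-31, an acyltransferase gene, differed by 1.18 and 2.62. The infection response gene irg-2 had 6.91, 6.84 and 7.40 CPM in ascr#10 worms of the second collection and 8.77, 7.59 and 8.23 CPM in the first, but 13.92, 14.07 and 14.04 CPM in water worms of the second collection and 6.70, 6.34 and 6.86 CPM in the first. It was higher in water worms alone, and its small fall in ascr#10 worms (-0.22) lost its call in 4 of the fits that left out a library. F14F9.4 likewise had 0.20 in ascr#10 worms (adjusted p = 0.13) and 1.41 in water worms.

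Several heat shock genes had the same order. hsp-70 differed by 3.04 in ascr#10 and 3.78 in water worms (difference -0.73, adjusted p = 0.0017), and hsp-16.11 by 2.25 and 2.93. F44E5.4 had 3.08 and 4.17 without a call (adjusted p = 0.35), and F44E5.5 had 3.00 and 2.89 (adjusted p = 0.88). The test called 10 of the 26 heat shock and chaperone genes negative and 2 positive. Over all genes tested, 6.8% were negative and 4.34% positive. Of 47 digestive and antimicrobial enzyme genes, 23 were negative and the rest not called, with medians of 0.33 in ascr#10 and 0.56 in water worms. Of 102 glucuronosyl and glutathione transferases, 28 were negative and 4 positive (medians 0.21 and 0.43), and of 10 ascaroside synthesis genes, 7 were negative and the rest not called (medians 0.16 and 0.42). Of 24 desaturase and elongase genes, 10 were negative and 1 positive, although elo-5 differed by 2.77 and 3.03.

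The strongest positive values under the same limits were in cuticle genes. col-12 (WBGene00000601, chromosome V from 10423898 to 10425198), a collagen, had 12.6, 12.3 and 13.4 CPM in ascr#10 worms of the second collection and 13.29, 16.415 and 15 CPM in the first, and the groups overlapped. In water worms it had 13.11, 12.82 and 13.05 CPM in the second collection and 34.16, 37.34 and 32 CPM in the first. Its log2 difference was -0.21 in ascr#10 and -1.41 in water worms, and these differed by 1.197 ± 0.07 (SE, adjusted p = 1.3e-13). The library group that stood apart was the water worms of the first collection.

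The collagens col-125 and dpy-14 had log2 differences of -1.06 and -1.07 in ascr#10 worms, against -2.20 and -2.13 in water worms. The collagen sqt-3 had -0.59 and -1.54, and noah-1, of the apical extracellular matrix, -1.31 and -1.99. col-144 was the exception in kind, with 1.24 in ascr#10 worms and no call in water worms (0.21). These cuticle genes did not all move alike with age. In water worms of the first collection, the log2 difference of 58 h against 50 h was 7.64 for dpy-14 and -4.46 for col-144. Of 122 collagens, the test called 33 positive and 24 negative, beside 4.34% and 6.8% of all genes tested. Of the 57 collagens called, 51 had the smaller difference in ascr#10 worms. Of 23 body-shape genes, 7 were positive and the rest not called.

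Muscle genes mostly had a lower second-minus-first difference in ascr#10 than in water worms, but were split in its size. The test called 29 of 36 negative and 1 positive, beside 6.8% and 4.34% of all genes tested. Medians of the 36 were -0.22 in ascr#10 and 0.11 in water worms. In water worms 19 of the 36 were higher and 14 lower. The smaller absolute difference lay in ascr#10 worms for 16 of the 36, and for 12 of those that the test called. myo-2 differed by -1.34 in ascr#10 worms and by -0.73 in water worms, where it had 88.3, 88.0 and 84.4 CPM in the second collection and 150, 137 and 144 CPM in the first. unc-54 differed by -0.67 and -0.48. Vitellogenins also had the lower values in ascr#10 worms, with 5 of 6 negative and medians of -0.31 and -0.09, and flp-1 differed by -0.57 in ascr#10 and 0.03 in water worms (difference -0.60, adjusted p = 3e-05). Of 31 proteasome subunits, 13 were positive and the rest not called, with medians of -0.03 and -0.13, and of 24 oocyte and maternal regulators, 10 were positive and the rest not called, with medians of 0.10 and -0.01.

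**Figure D5:**
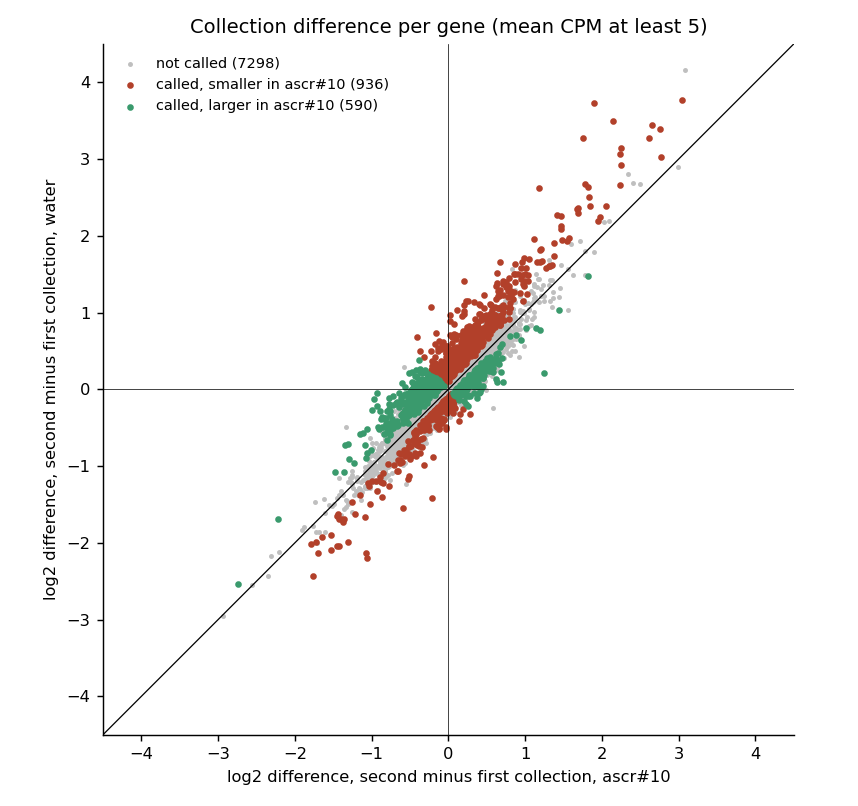
Log2 difference, second minus first collection, in ascr#10 worms (x axis) and in water worms (y axis) for 8824 genes with at least 5 CPM over the 12 libraries of 58 h, with the line of equality. Of the genes whose differences differed in the test, 936 (red) had the smaller absolute difference in ascr#10 worms and 590 (green) the larger, and red points hold most of the upper right.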

How the data were processed

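Per the file headers, the authors deposited salmon's estimated counts for each gene without normalization. The authors also deposited length-scaled estimated counts and TPM values, used as alternatives. The strand setting, the salmon version, the annotation and its build are not given in the sources used, so overlapping genes may not be told apart. Overlaps are stated above for some of the named genes only. Of the counts, 95.2% were whole, and all were rounded. Genes were kept by filterByExpr with 10 as its minimum count. Libraries were scaled by TMM, and the quasi-likelihood F test of edgeR 4.0.16 (R 4.3.3) was fitted on 6 group means over all 18 samples, with Benjamini-Hochberg adjustment at 0.05. Calls are at adjusted p under this threshold. Alternatives used limma 3.58.1 on log2(TPM + 1), DESeq2 1.42.0 and others named under the sensitivity of results. Tested on simulated data, 53 of 100 genes changed 1.2-fold and 87 of 100 changed 1.5-fold were recovered in the ascr#10 comparison. There, 20 unchanged genes were called, of 16006. Only these seeded genes were changed, and all of them had a mean of at least 1 CPM. In the real data 55.5% of genes were called, so recovery there may differ. Total counts per library ran from 25.6 to 72.3 M counts.

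Genes were named by a rule: the 12 largest called rises and falls with at least 5 CPM and no overlap, the largest called rise and fall of each of 50 gene lists with at least 5 CPM, the 6 highest and 6 lowest called differences between exposures with at least 5 CPM, and 14 genes always given. Samples, lists and rules were chosen with earlier results of these data known. Positions and exon lengths are from the Ensembl annotation of WBcel235, matched by identifier, which held 15987 of the genes tested. The length-trend fit used exon-length bins as an offset. A characteristic in the labels gives 58 h for all samples, while titles and descriptions give 50 h for 6, and these were used. No libraries were identical, and replicates differed beyond counting noise. Transcript tables and counts scaled in other ways were left out.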

Additional observations from a re-analysis of the deposited data

Results flagged for a closer look

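The test of whether the collection difference differed between ascr#10 and water worms called 1783 genes, and 12 of these, the 6 highest and 6 lowest with at least 5 CPM, stand out by size. On the log2 scale, ascr#10 difference minus water difference, the positive values were 1.197 for col-12, 1.14 for col-125, 1.06 for dpy-14, 1.03 for col-144, 0.95 for sqt-3 and 0.68 for noah-1, all genes of the cuticle or its matrix. The negative values were -1.83 for kreg-1, -1.53 for gcsh-1, -1.44 for oac-31, -1.35 for zip-10, -1.30 for irg-2 and -1.21 for F14F9.4. All 12 kept their direction and their call under every alternative run for them.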

How the results depend on the processing

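Most results for gene counts and single genes kept their direction and side of the threshold. Medians of gene lists were less steady: over all alternatives 509 were rated the same and 290 moved. Of the 50 list medians, 46 moved on log2(TPM + 1) and 39 with the length trend removed. The scale mattered most. On log2(TPM + 1), limma called 1528 genes higher (309 by 1.5-fold) and 7331 lower in ascr#10 worms and 1841 higher (491 by 1.5-fold) and 7529 lower in water worms, and 688 genes with a differing difference had the smaller one in ascr#10 worms. The stricter count filter left 927 genes higher by 1.5-fold in water worms. The median distance between collections was 0.265 in ascr#10 and 0.267 in water worms with that filter, 0.229 and 0.248 on log2(TPM + 1), and 0.616 and 0.680 as a root mean square (0.602 and 0.668 thinned).

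On log2(TPM + 1) these genes changed sign: unc-98 (-0.058), inx-9 (-0.047), pas-3 (-0.068), rme-2 (-0.15), oma-1 (-0.10), acdh-1 (-0.23) and daf-22 (-0.10). The median of all genes on that scale was -0.15. Of the genes named, acdh-1 lay below it, rme-2 close to it and the others above it. With the length trend removed, syp-1 (0.067), vit-6 (0.0044), glp-1 (0.24) and hsp-90 (0.0061) did. The cause was not tested beyond these fits.

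Leaving out 1 library at a time, genes higher in ascr#10 worms ran from 4571 to 4781 (1075 to 1169 by 1.5-fold) and lower from 3615 to 3831 (1205 to 1284). In water worms they ran from 4640 to 4775 (1369 to 1425) and from 3975 to 4117 (1478 to 1546). Genes with a differing difference ran from 1448 to 2098, of which 907 to 1288 had the smaller one in ascr#10 worms, and the distances from 0.292 to 0.303 in ascr#10 and 0.297 to 0.304 in water worms.

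Same-numbered samples did not deviate together (correlations from -0.0456 to 0.0246), so the numbers do not pair them. With a replicate block, 4813 genes were higher and 4029 lower in ascr#10 worms, 4928 and 4343 in water worms, and 1750 had a differing difference.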
